A study of Mus musculus with 14 samples.

Results

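The RNA-seq series described here comes from isolated mouse colon epithelium, and the question asked of it is whether loss of Smad4 alters the transcriptional response to dextran sodium sulfate (DSS), a sulfated polysaccharide given in drinking water that injures the colonic mucosa. The quantity reported is the response of the knockout (DSS minus water) minus the response of WT (DSS minus water), on the log2 scale, and is called the genotype difference. It uses all 14 of the 14 libraries of the series: 4 water-treated WT, 4 labelled as water-treated Smad4 IEC-KO, and 3 of each genotype after 3 d of 2.5% DSS. It was computed again over 13 libraries, leaving out replicate 1 of the water-treated knockout, whose Smad4 count is at the WT level. The study's figure legends for the sequencing give 3 replicates of that group, without saying which. WT and Smad4 IEC-KO mice were 8 to 14 wk old, matched for gender and age, and on a background enriched for C57/BL6. In the knockout the floxed Smad4 alleles are removed by Villin-CreERT2 after tamoxifen, so that deletion is confined by design to the intestinal epithelium and Smad4 in other cells that were carried along is untouched. The water groups are labelled as untreated, and the study's methods place the transgene in conditional mutants and in controls, without giving the genotype or tamoxifen treatment of each WT animal. Nothing in the sources used here says that the mice of a group came from separate litters, and p-values measure the spread between these libraries.

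Smad4 is the shared partner of the receptor-activated SMAD proteins of the BMP and TGF-β pathways. In the gut, BMP signals are strongest towards the luminal surface and oppose the Wnt signals that keep crypt base cells dividing, and Id genes are direct targets of BMP signaling. DSS disturbs the barrier, after which epithelial cells are known to express antimicrobial, acute phase and interferon-stimulated genes.

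Normalized counts are counts scaled by the TMM method of edgeR to a common library size. Smad4, on chromosome 18 of mm9 from 73798663 to 73863434, had 2434, 3188, 2694 and 2372 normalized counts in the 4 water-treated WT libraries and 3407, 3650 and 3493 in WT after DSS. The knockout had 878, 808 and 856 after DSS, and 741, 936 and 702 in water replicates 2, 3 and 4, while replicate 1 had 3164. All knockout libraries but that one were below every WT library. Total counts ran from 12882827 to 26087231 per library and mitochondrial genes held 4.05% to 32.8% of them. The share was above 20% in 3 water libraries, WT replicates 3 and 4 and Smad4 KO replicate 4, and at most 8.23% in the others. Library names begin with D, Z or M, letters whose meaning is not given in the sources used here. All 3 Smad4 KO libraries after DSS begin with D and no Smad4 KO water library does. The knockout response and this letter therefore cannot be told apart, and no knockout response within a letter could be had. Fits given below with the name letter as a block take the effect of D from the WT libraries alone. They carry it over to the knockout, an assumption that was not tested.

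One gene passed the test. Of 15127 genes that reached 10 counts in 3 or more libraries, edgeR's quasi-likelihood test with Benjamini-Hochberg adjustment called 1 gene in the genotype difference with 14 libraries, 0.00661% of those tested, and the same gene with 13. It was Rpl34, a protein of the large ribosomal subunit. At an unadjusted p below 0.05, 526 genes had a larger value in the knockout response (3.48%) and 609 a smaller one (4.03%) with 14 libraries, and 630 (4.16%) and 645 (4.26%) with 13. The median half-width of the 95% interval was 0.60 with 14 libraries and 0.63 with 13. It was taken over the 11579 genes with a mean of at least 50 normalized counts. This interval is not adjusted for the number of genes tested, so that it is not the smallest difference the test could call. Far larger differences were not called either, such as that of Tsnax with 14 libraries (-3.65, SE 0.89, edgeR adjusted p = 0.64). The 2 responses had few calls of their own. In WT, 0 genes passed the adjusted test (0%), with 3174 (21%) at an unadjusted p below 0.05 and 851 and 1431 called by DESeq2 and by limma voom with quality weights. In Smad4 KO, 10 genes passed (0.0661%) with 14 libraries and 5 (0.0331%) with 13. Beside Rpl34 they include Ccdc109b, a subunit of the mitochondrial calcium uniporter, which rose by 2.52 (SE 0.32, edgeR adjusted p = 0.004) in Smad4 KO against a WT value of 1.06 (SE 0.30), and Trpm6, a magnesium channel, which fell by 1.60 with 13 libraries (SE 0.24, edgeR adjusted p = 0.027) against -0.41 (SE 0.23). With 14 libraries the genotype differences of Ccdc109b and Trpm6, 1.47 (SE 0.44) and -1.10 (SE 0.32), were not called (edgeR adjusted p = 0.64 for both). In that fit Trpm6 had a Smad4 KO response of -1.50 (SE 0.23). Slc25a4, the mitochondrial ADP/ATP carrier, rose by 0.97 (SE 0.16) with 14 libraries only, and had a genotype difference of 0.64 (SE 0.23).

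The number of calls depended on which water-treated libraries were kept. Without Smad4 KO water replicate 4 as well as replicate 1, 454 genes passed (3%), 264 above 0 (1.75%) and 190 below 0 (1.26%). Without the 3 water libraries over 20% mitochondrial and without replicate 1, which leaves 2 water libraries of each genotype, 776 genes passed (5.13%), 385 above 0 (2.55%) and 391 below 0 (2.58%). The second choice was made after the data were examined. Both counts share 410 genes, 52.8% of the larger and 90.3% of the smaller, all in the same direction. With replicate 1 kept, leaving out Smad4 KO water replicate 4 gave 5 calls (0.0331%) and leaving out the 3 libraries gave 30 (0.198%).

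**Figure D1:**
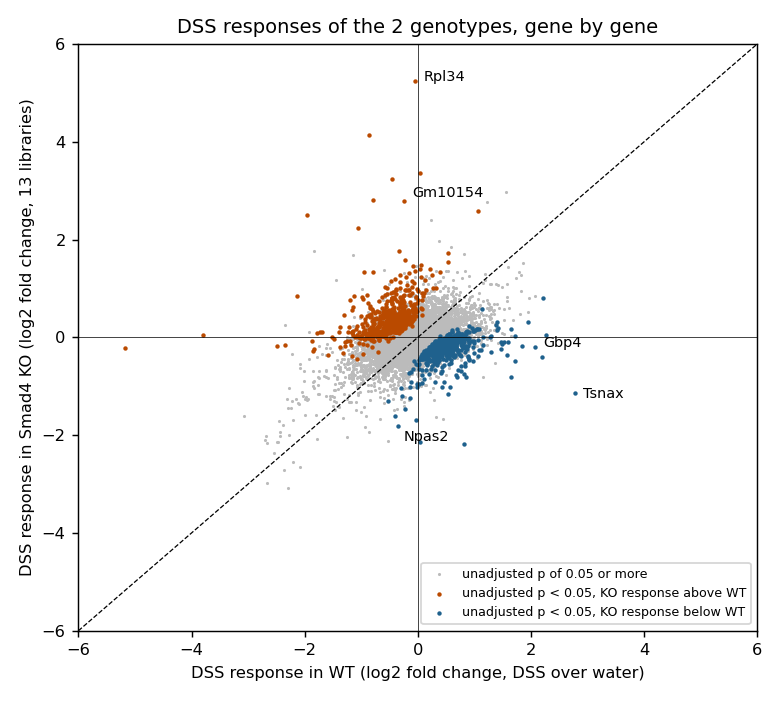
Each point is 1 of the 11579 genes with a mean of at least 50 normalized counts, with its log2 fold change of DSS over water in WT on the x axis and in Smad4 KO, over 13 libraries, on the y axis. The dashed line marks equal responses, orange and blue mark genes at an unadjusted p below 0.05 above and below it, and Rpl34 is the highest point, with a WT response of -0.05 and a Smad4 KO response of 5.25.

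In most genes at an unadjusted p below 0.05, the gap between the genotypes was larger on water than after DSS. With 13 libraries, 637 of the 645 genes below 0 (98.8%) had a higher level in Smad4 KO than in WT on water, against 49.2% of all genes tested, and in 579 of them (89.8%) the gap between the genotypes was larger on water than after DSS. Of the 630 genes above 0, 4 were higher in Smad4 KO on water, and the gap was larger on water in 566 (89.8%), against 70.8% of all genes tested. The rule that picks these genes uses the same libraries, so that the shares are a description. Responses of opposite sign were found for 558 of the 645 genes below 0, with a WT value above 0 and a Smad4 KO value below 0, and for 556 of the 630 above 0 in the other order. Among all 15127 genes tested, 3151 had the first order of signs and 2975 the second. Across the 11564 genes with an annotated length and a mean of at least 50, the responses of the genotypes had a Pearson correlation of 0.39 with 14 libraries and 0.36 with 13, across genes, which are not independent replicates. The 2 responses share no library, though they were scaled together.

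Rpl34 (ENSMUSG00000062006) lies on chromosome 3 of mm9 from 130429749 to 130433316 on the minus strand. It had 4451, 4157, 6482 and 8227 normalized counts in WT on water and 6694, 4380 and 5767 in WT after DSS, and these ranges overlap. In Smad4 KO it had 129, 97.8, 70 and 176 on water and 6107, 3116 and 3766 after DSS, with no overlap. The 4 water-treated knockout libraries, replicate 1 included, are the lowest of all. The response was 5.20 (SE 0.34) in Smad4 KO and -0.05 (SE 0.30) in WT, and the genotype difference was 5.25 (SE 0.46, edgeR adjusted p = 6.5e-05), or 5.30 (SE 0.50, edgeR adjusted p = 0.00037) with 13 libraries.

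The genome holds near-identical copies of this gene. Its coding sequence of 351 bases was found without a gap and with over 90% identity at 5 other places in mm9, of which 4 are annotated and counted. Rpl34-ps1, a pseudogene on chromosome 6 from 71074583 to 71074994, differs at 2 bases, T132C and C318G, and Gm10154, annotated as protein coding on chromosome 4 from 83151051 to 83151458, at 4, T132C, G236A, C237T and C318G, with positions counted from 1 at the first base of the start codon. The first and last of these changes are also in the other 3 copies. Bases 121 to 330 of the coding sequence are shown for the 3 copies with appreciable counts, since these bases are what separates them, with capitals at the 4 positions where any of the 3 differ.
Rpl34: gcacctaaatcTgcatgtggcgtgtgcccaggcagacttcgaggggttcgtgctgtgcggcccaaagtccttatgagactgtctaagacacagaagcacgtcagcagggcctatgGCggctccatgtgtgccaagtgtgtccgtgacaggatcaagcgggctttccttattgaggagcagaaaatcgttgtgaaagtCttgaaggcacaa
Rpl34-ps1: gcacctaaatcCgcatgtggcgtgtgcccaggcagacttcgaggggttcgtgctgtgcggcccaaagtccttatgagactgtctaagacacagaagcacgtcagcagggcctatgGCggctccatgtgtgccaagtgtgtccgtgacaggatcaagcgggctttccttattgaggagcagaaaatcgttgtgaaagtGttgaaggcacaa
Gm10154: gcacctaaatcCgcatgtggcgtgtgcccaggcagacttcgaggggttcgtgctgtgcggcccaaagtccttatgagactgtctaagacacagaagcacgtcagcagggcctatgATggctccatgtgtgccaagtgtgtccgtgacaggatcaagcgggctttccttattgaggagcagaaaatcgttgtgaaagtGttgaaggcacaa

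The pseudogene showed the opposite pattern in part of the libraries. Before normalization, Rpl34-ps1 had 7109, 5274, 4734 and 5291 counts in WT on water, 794, 5336 and 558 in WT after DSS, 9504, 9270, 6608 and 9990 in Smad4 KO on water and 6420, 3680 and 4257 in Smad4 KO after DSS. Rpl34 itself had 6008, 4683, 3977 and 3843, then 7275, 4788 and 6842, then 147, 82, 85 and 164, and then 5833, 3161 and 3707 counts in the same order. Rpl34 was at its lowest in Smad4 KO on water. The pseudogene was above all other libraries in Smad4 KO water replicates 1, 2 and 4. Replicate 3 of that group, at 6608, lay below WT water replicate 1, at 7109. In WT after DSS replicates 1 and 3 the pseudogene was at its lowest. These counts are not scaled, so that their order also reflects library totals. The share of Rpl34 in the sum of the pair took 3 separate levels, 0.877% to 1.62% in the 4 Smad4 KO libraries on water, 42.1% to 47.6% in 8 libraries, and 90.2% and 92.5% in WT after DSS replicates 1 and 3. Gm10154 was also lowest in Smad4 KO on water, with 7.05 to 22.7 normalized counts in Smad4 KO on water and 84.2 to 155 in all other libraries, and a genotype difference of 3.27 (SE 0.53, edgeR adjusted p = 0.10). Summed over the annotated copies, the family had 13197 ± 4940 (SD, n = 4) normalized counts in WT on water, 7740 ± 1510 (SD, n = 3) in WT after DSS, 9024 ± 2624 (SD, n = 4) in Smad4 KO on water and 9337 ± 3229 (SD, n = 3) in Smad4 KO after DSS, and these groups overlap. The genotype difference of the sum was 0.82 with 14 libraries and 0.79 with 13 (edgeR adjusted p = 0.65 in both), and no gene was then called, with 1133 and 1273 at an unadjusted p below 0.05. The reads, which would show the bases at positions 132 and 318, were not analysed here.

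**Figure D2:**
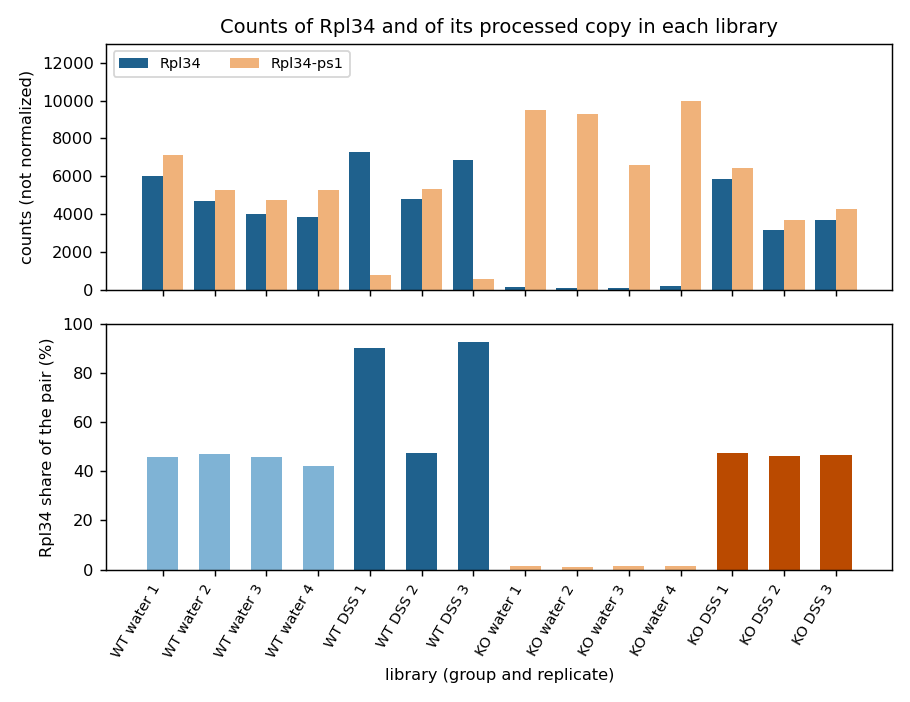
The upper bars give the counts of Rpl34 and Rpl34-ps1 in each library before normalization, and the lower bars the share of Rpl34 in their sum, in percent. The share is at most 1.62% in the 4 Smad4 KO water libraries and over 90% in 2 of the 3 WT libraries after DSS.

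No other gene passed the test, and the genes with the smallest p-values are described with that limit. Above 0, several were short or ribosomal protein copies. Gm10709, a predicted gene of 483 exonic bases on chromosome 9, had 409, 431, 329 and 304 normalized counts in WT on water and 236, 302 and 341 in WT after DSS. Smad4 KO libraries had 247, 78.7, 82.3 and 128 on water and 361, 316 and 312 after DSS, so that the water libraries lie below those after DSS in the knockout only. Its difference was 1.63 (SE 0.44, edgeR adjusted p = 0.64) with 14 libraries and 2.11 (SE 0.31, edgeR adjusted p = 0.058) with 13. Rps26-ps1, a ribosomal protein copy of 413 bases on chromosome 8, had a difference of 3.45 (SE 1.01) and 4.46 (SE 0.92) with 13 libraries, and 1 WT water library at 1090 normalized counts stands apart from the 130 to 286 of the others. Gm13841 (1.46, SE 0.30), Gm10335 (1.27, SE 0.28) and Lsmd1 (1.43, SE 0.31), a subunit of an N-terminal acetyltransferase, had like values with 13 libraries.

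Longer-known genes were also in this group. Ninj1, a membrane protein of nerve injury and plasma membrane rupture, had 529 to 865 normalized counts in WT on water, 516 to 563 in WT after DSS, 344 to 506 in Smad4 KO on water and 544 to 639 in Smad4 KO after DSS, with a difference of 0.93 (SE 0.25), or 1.05 (SE 0.24) with 13 libraries. Gpd1, the cytosolic glycerol-3-phosphate dehydrogenase, rose in Smad4 KO, from 661, 650, 826 and 835 to 1369, 1439 and 1323, a response of 0.89 (SE 0.15, edgeR adjusted p = 0.04) whose call was lost with 13 libraries (edgeR adjusted p = 0.16), and had a WT response of 0.09 (SE 0.15). Its genotype difference of 0.80 (SE 0.21) was not called (edgeR adjusted p = 0.64). Ttr, the thyroid hormone carrier transthyretin, had 503 to 578 normalized counts in WT on water and 36.8, 167 and 109 after DSS, while Smad4 KO had 204 to 538 and 280 to 331, a difference of 2.05 (SE 0.53). Rgl3, an activator of Ral GTPases (1.66, SE 0.43), and 1190002H23Rik were the others, and the latter depended on the excluded library, with 1.00 (SE 0.66) with 14 libraries and 1.87 (SE 0.41) with 13.

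Tsnax was among the genes below 0 with the smallest p-values in both fits. This gene, which encodes the translin-associated RNA processing factor, had 24.4, 16, 21.2 and 57.8 normalized counts in WT on water and 139, 201 and 243 in WT after DSS. The knockout had 36.1, 122, 180 and 17.1 on water and 41.9, 70 and 32.5 after DSS. The WT groups do not overlap and the knockout groups do, and the difference was -3.65 (SE 0.89, edgeR adjusted p = 0.64), or -3.91 (SE 0.87, edgeR adjusted p = 0.56) with 13 libraries. Nab1, a co-repressor of EGR transcription factors (-0.80, SE 0.19), Slc25a24, a mitochondrial ATP carrier (-0.84, SE 0.21), and Fam23a (-1.08, SE 0.25) were in this group in both fits. In WT, Nab1 was at 1136 to 1252 on water and 1608 to 1829 after DSS, and in Smad4 KO at 1452 to 2078 and 1389 to 1592, so that the knockout was above the WT water level before DSS. Elovl7, a fatty acid elongase (-0.70, SE 0.16), Lyst, a regulator of lysosome size (-1.35, SE 0.33), and AL646020.1, a microRNA gene of 53 bases with 16.3 to 31.1 normalized counts in WT on water and 65.3 to 146 in all other libraries, were named with 14 libraries, and Wdfy1, an endosomal adaptor (-1.12, SE 0.22), and Fam102b (-0.84, SE 0.20) with 13. In the fit without Smad4 KO water replicates 1 and 4, all 9 of these genes passed, Tsnax among them (-4.43, edgeR adjusted p = 0.011). That fit called 454 genes (3%). The genes were named for their small p-values in the same libraries, so that passing there is no separate support.

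The genes above and below 0 differed in length and base composition, neither of which the test used. With 14 libraries, the 526 genes above 0 at an unadjusted p below 0.05 had a median exonic length of 1754 bases, the 609 below 0 one of 5778, and all genes tested one of 3304. Median GC content was 54%, 44.7% and 50%. Genes with 1 exon made up 18.3% of those above 0, 2.96% of those below 0 and 7.1% of all, and pseudogenes 10.5%, 1.81% and 4.04%. Across 11564 genes the difference and exonic length had a Spearman correlation of -0.40, and with GC content of 0.42, again across genes. Over 5 groups of genes by length, in the shortest, up to 1967 bases, the median WT response was -0.21 and the median Smad4 KO response 0.05, and in the longest they were 0.20 and -0.05. At an unadjusted p below 0.05, 10.4% of the shortest group were above 0 and 1.04% below, against 0.908% and 11.8% of the longest.

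**Figure D3:**
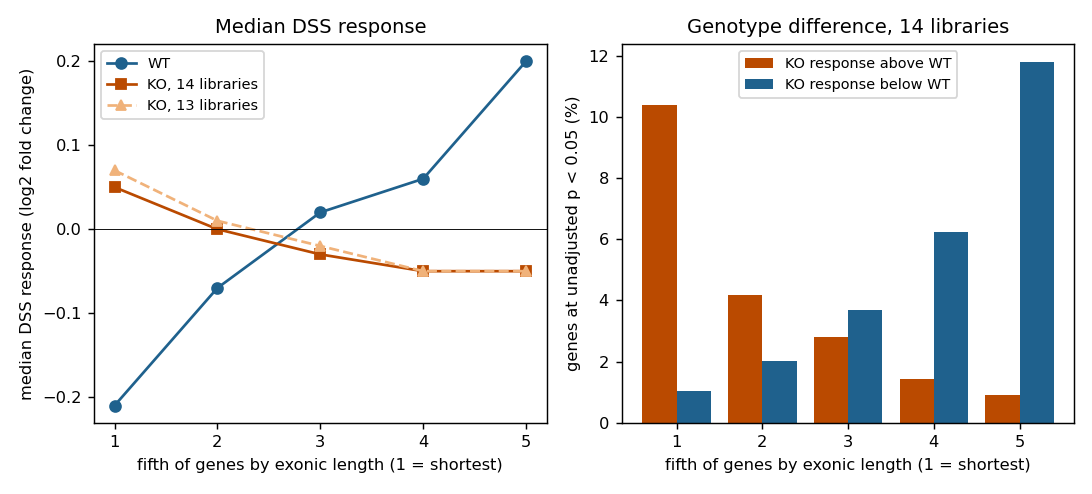
Genes with a mean of at least 50 normalized counts are split into 5 groups of about equal number by exonic length. The left panel gives the median DSS response of each group in WT and in Smad4 KO (log2), and the right panel the percent of genes at an unadjusted p below 0.05 in each direction, where 10.4% of the shortest group lie above 0 and 11.8% of the longest below.

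The calls made with fewer water libraries were also short above 0 and long below 0. Without Smad4 KO water replicates 1 and 4, the 264 genes above 0 had a median length of 1300 bases and 24 of them carried ribosomal protein symbols, and the 190 below 0 had a median of 6909 bases and no such symbol. When each library's trends with length and GC content were removed, an alternative added after the data were examined, Rpl34 remained the only call in both fits and the genes at an unadjusted p below 0.05 numbered 797 with 14 libraries and 895 with 13.

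Most interferon-stimulated genes had a lower value in the knockout response than in the WT response. With 13 libraries, 37 of 44 tested genes were below 0, against 50.2% of all genes tested, and 9 were below 0 at an unadjusted p below 0.05 (background 4.26%), 0 above 0 and 0 called. With 14 libraries the counts were 33 below 0 (50.6%) and 6 at an unadjusted p below 0.05 (4.03%). The median difference was -0.40 with 13 libraries and -0.28 with 14, against 0.00 and -0.01 for all genes. With length and GC trends removed it was -0.24 and -0.17, and with the name letter as a block -0.17 and -0.14. Leaving out Smad4 KO water replicate 3 moved the median with 13 libraries to -0.25, and leaving out WT water replicate 2 moved that with 14 to -0.18. The list and all lists that follow were chosen with earlier results of these data known.

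Gbp4, an interferon-inducible GTPase, had the smallest p of the list with 13 libraries. It had 77.8, 47.9, 37.5 and 47.1 normalized counts in WT on water and 237, 137 and 300 in WT after DSS, with no overlap. In Smad4 KO it had 37.9, 104, 208 and 153 on water and 127, 157 and 123 after DSS. The knockout replicate 1 was at the WT water level, and the other 3 water libraries spanned those after DSS. The difference was -1.97 (SE 0.61, edgeR adjusted p = 0.64) with 14 libraries and -2.27 (SE 0.47, edgeR adjusted p = 0.50) with 13. Without Smad4 KO water replicates 1 and 4 it passed (-2.28, edgeR adjusted p = 0.035). Gbp4 was named for its small p in the same libraries, so that this call is no separate support.

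Ifit2, an antiviral protein that binds RNA, had 380, 263, 499 and 298 normalized counts in WT on water and 803, 512 and 956 after DSS. In Smad4 KO it had 247, 801, 1061 and 655 on water and 661, 783 and 488 after DSS, where replicate 1 is again the lowest. Its difference was -1.18 (SE 0.52) with 14 libraries and -1.46 (SE 0.38) with 13. Other members at an unadjusted p below 0.05 with 13 libraries were Irgm2 (-0.84, SE 0.26) and Gbp7 (-0.71, SE 0.30), both interferon-inducible GTPases, Parp14 (-0.67, SE 0.19), Dtx3l (-0.71, SE 0.25), Parp9 (-0.45, SE 0.20), the RNA sensor Ddx58 (-0.54, SE 0.24) and the nucleic acid sensor Zbp1 (-0.51, SE 0.21). With 14 libraries, Irf1, a transcription factor of the interferon response, had a response of 0.40 (SE 0.15) in WT and 0.50 (SE 0.15) in Smad4 KO, a difference of 0.10 (SE 0.21), and Irf8 a difference of 0.15 (SE 0.19). Several antiviral members fell after DSS in both genotypes. With 14 libraries, Ifit1 had a response of -1.05 (SE 0.33) in each and a difference of 0.01 (SE 0.47). The differences of Ifit3 (0.55, SE 0.66), Irf7 (0.34, SE 0.49), Mx2 (0.07, SE 0.72) and Oas2 (-0.08, SE 0.79) were of this kind. In that fit 11 of the 44 members had a positive difference and 33 a negative one. Over the list the median response was 0.10 in WT, with 26 members positive, and -0.20 in Smad4 KO with 13 libraries.

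The interferon-stimulated response element, searched as GAAA, any 2 bases and GAAA on both strands, is bound by the ISGF3 and IRF factors. Of the 44 genes, 30 had a promoter in the RefSeq tables (GRCm38.p6), and 16 of these (53.3%) held the motif in the 250 bases before the start, against 936 of 27025 genes (3.46%). Among the members at an unadjusted p below 0.05 below 0, 5 had a promoter and 2, Irgm2 and Gbp7, a match. Their 250 bases before the start are shown with the match in capitals, chosen after their values were seen, for Irgm2 at chr11:58214727-58214976 and for Gbp7 at chr3:142530086-142530335, both on the plus strand of GRCm38.p6.
Irgm2: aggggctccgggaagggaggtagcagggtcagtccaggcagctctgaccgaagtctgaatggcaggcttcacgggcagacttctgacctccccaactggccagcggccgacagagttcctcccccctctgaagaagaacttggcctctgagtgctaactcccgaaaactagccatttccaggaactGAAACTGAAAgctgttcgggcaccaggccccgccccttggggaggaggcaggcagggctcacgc
Gbp7: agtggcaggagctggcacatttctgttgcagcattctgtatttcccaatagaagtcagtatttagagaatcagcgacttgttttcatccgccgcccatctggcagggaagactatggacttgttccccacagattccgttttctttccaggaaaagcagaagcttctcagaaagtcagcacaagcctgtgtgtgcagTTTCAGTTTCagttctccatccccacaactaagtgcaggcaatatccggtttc

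**Figure D4:**
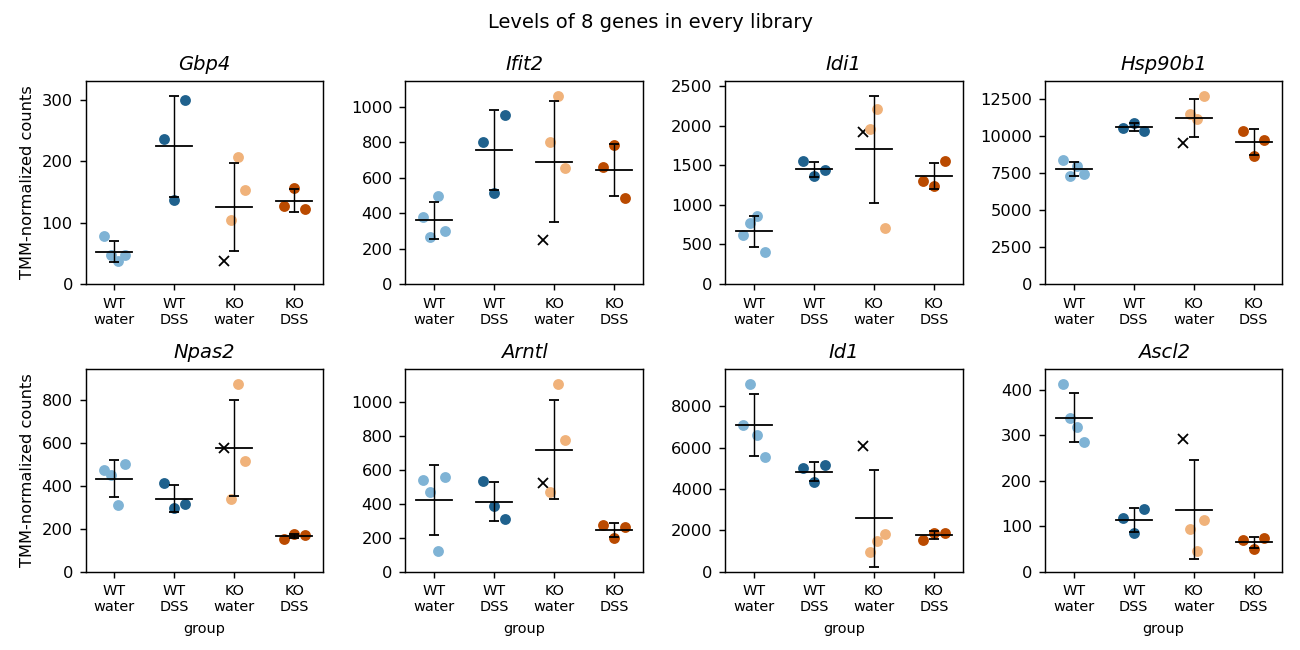
TMM-normalized counts of 8 genes in every library, by group, with the mean as a line and the SD as bars (n = 4 for water, 3 for DSS). The cross marks Smad4 KO water replicate 1, which lies at 37.9 for Gbp4 and at 6058 for Id1, away from the other 3 libraries of its group.

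Genes of antigen presentation and mucosal defense had medians closer to 0. Over all genes tested with 13 libraries, 50.2% were below 0, and 4.16% were above and 4.26% below 0 at an unadjusted p below 0.05. Of 22 tested antigen presentation genes, 15 were below 0 with 13 libraries and 0 reached an unadjusted p of 0.05 in either direction, with a median of -0.17, or -0.12 with 14. The median turned positive without Smad4 KO water replicate 4, without WT after DSS replicate 3, and with the name letter as a block, among others. Of 30 mucosal defense and acute phase genes, 18 were below 0, with 1 above and 2 below 0 at an unadjusted p below 0.05 and a median of -0.12. The 2 were complement C3, the central complement protein, and Cxcl5, a neutrophil chemokine (-1.62, SE 0.64). C3 had 473, 937, 883 and 497 normalized counts in WT on water and 1286, 1737 and 2769 after DSS, without overlap. In Smad4 KO it had 1626, 1085, 2231 and 3415 on water and 1947, 2251 and 2079 after DSS, and the difference was -1.57 (SE 0.50), or -1.46 (SE 0.49) with 14 libraries. Noxa1, an activator of the epithelial NADPH oxidase, had a difference of 0.66 (SE 0.23) with 13 libraries, with 3913, 3987 and 3746 normalized counts in Smad4 KO after DSS against 1912 to 3201 on water. With 14 libraries, Reg3b, a C-type lectin that binds bacteria, had a response of 1.78 (SE 0.59) in WT and 1.68 (SE 0.59) in Smad4 KO, and a difference of -0.09 (SE 0.83), whose interval is too wide to show equal responses.

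Cholesterol synthesis genes were shifted in the same direction as the interferon genes. Of 22 tested, of 23 listed, 17 were below 0 with 13 libraries and 19 with 14, and 5 were below 0 at an unadjusted p below 0.05 in each fit, with medians of -0.44 and -0.46. Values below 0 made up 50.2% and 50.6% of all genes tested, and unadjusted p-values below 0.05 below 0 made up 4.26% and 4.03%. Leaving out Smad4 KO water replicate 3 moved the medians to -0.14 and -0.25. Idi1, an isomerase of the isoprenoid pathway, had 620, 768, 862 and 409 normalized counts in WT on water and 1549, 1367 and 1436 after DSS. The Smad4 KO values were 1916, 1964, 2218 and 708 on water and 1302, 1238 and 1550 after DSS, where the lowest is replicate 4, with 21.4% mitochondrial counts. The difference was -1.44 (SE 0.42, edgeR adjusted p = 0.64), and without that replicate it passed in both fits. Idi1 was named for its small p in the same libraries, and the replicate left out lies within the WT water range. Those calls are therefore no separate support. Cyp51, a demethylase of the sterol pathway (-0.57, SE 0.21), Hsd17b7 (-1.14, SE 0.39) and Sc5d (-0.57, SE 0.24) were also at an unadjusted p below 0.05 with 14 libraries. The regulator Srebf2 had a difference of -0.13 (SE 0.22). The median response of the list was 0.62 in WT and 0.22 in Smad4 KO.

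Of all genes tested, 50.2% were below 0 with 13 libraries and 50.6% with 14. At an unadjusted p below 0.05, 4.26% and 4.03% were below 0. Unfolded protein response genes had a median difference of -0.26 with 13 libraries and -0.21 with 14. In each fit 14 of 20 were below 0, and 3 were below 0 at an unadjusted p below 0.05. The median turned positive, to 0.11 and 0.18, without the 3 water libraries over 20% mitochondrial. With 13 libraries it was -0.15 without Smad4 KO water replicate 4 and -0.40 without WT water replicate 1. Hsp90b1, the HSP90 chaperone of the endoplasmic reticulum, had 7322 to 8393 normalized counts in WT on water and 10389 to 10888 after DSS. It had 9564, 11541, 11157 and 12725 in Smad4 KO on water and 8671 to 10365 after DSS, so that every knockout library exceeded every WT library on water. Its difference was -0.67 (SE 0.19), or -0.74 (SE 0.19) with 13 libraries. Pdia4, a disulfide isomerase (-0.54, SE 0.23), and the chaperone Canx (-0.56, SE 0.23) were the other 2. Hspa5, the chaperone BiP, had a difference of -0.32 (SE 0.28) and Calr, calreticulin, one of -0.24 (SE 0.25).

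Circadian clock genes were split. Of 14 tested, of 17 listed, 3 were above and 3 below 0 at an unadjusted p below 0.05 in both fits. Over all genes tested, these shares were 3.48% and 4.03% with 14 libraries and 4.16% and 4.26% with 13. The median was 0.34 with 14 libraries and 0.46 with 13, and with single libraries left out it reached 0.58 with 14 libraries without WT water replicate 4, and with 13 libraries 0.88 without Smad4 KO water replicate 2 and 0.27 without WT water replicate 3. The 3 below 0 were the positive arm of the clock, Arntl, Npas2 and Clock, and the 3 above were Per1, Cry2 and Dbp, repressors of that arm and one of its targets. Npas2, a partner of Arntl in DNA binding, had 474, 448, 308 and 501 normalized counts in WT on water and 411, 294 and 314 after DSS. Smad4 KO values were 573, 339, 875 and 515 on water and 153, 173 and 168 after DSS, the lowest 3 values of all libraries. It fell in Smad4 KO by 1.81 (SE 0.27, edgeR adjusted p = 0.023), a call lost with 13 libraries, and the genotype difference was -1.46 (SE 0.37, edgeR adjusted p = 0.64). Arntl had a difference of -1.51 (SE 0.57), with 274, 198 and 264 in Smad4 KO after DSS and 468 to 1108 on water. Per1 rose in Smad4 KO after DSS, a response of 1.35 (SE 0.23, edgeR adjusted p = 0.048), also lost with 13 libraries, and had a difference of 0.96 (SE 0.33). Dbp had a difference of 2.74 (SE 1.18) with 14 libraries and 3.32 (SE 1.24) with 13. Mice were killed around midday and the time of each animal is not given in the sources used here, so that the part of sampling time in these values was not tested. The E-box, CACGTG, is the site that the positive arm binds. It was found within 250 bases before the start in 3 of 11 clock genes with a promoter and in 6.86% of all genes. Among the members at an unadjusted p below 0.05, Per1 held it, in 1 of its 2 listed promoters, at chr11:69098699-69098948 on the plus strand of GRCm38.p6, shown with the E-box in capitals.
Per1: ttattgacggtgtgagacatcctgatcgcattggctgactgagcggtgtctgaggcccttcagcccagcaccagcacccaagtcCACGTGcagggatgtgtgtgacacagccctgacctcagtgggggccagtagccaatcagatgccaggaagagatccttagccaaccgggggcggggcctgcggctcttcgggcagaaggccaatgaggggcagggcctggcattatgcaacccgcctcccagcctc

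BMP and TGF-β SMAD targets depended on the library labelled Smad4 KO water replicate 1. Of 20 listed, 14 were tested. With 14 libraries 11 of them were below 0 with a median of -0.31, and with 13 libraries 7 were below 0 with a median of 0.07. Of all genes tested, 50.6% and 50.2% were below 0. Id1, an inhibitor of differentiation and a BMP target, had 7082, 9101, 6634 and 5538 normalized counts in WT on water and 5036, 4330 and 5161 after DSS. Smad4 KO had 6058 in water replicate 1, 958, 1456 and 1827 in the other 3, and 1533, 1856 and 1881 after DSS. The difference was 0.00 (SE 0.60) with 14 libraries and 0.86 (SE 0.30, edgeR adjusted p = 0.58) with 13. Id3 (1.76, SE 0.74) and Atoh8 (1.59, SE 0.59) had values of the same kind with 13 libraries and -1.24 (SE 1.38) and 0.96 (SE 0.69) with 14. Skil, a SMAD co-repressor and TGF-β target, did not depend on that library, with -0.94 (SE 0.28) and an unadjusted p below 0.05 in both fits. It had 492 to 980 normalized counts in WT on water, 1138 to 1357 in WT after DSS, 1356 to 2017 in Smad4 KO on water and 1250 to 1409 in Smad4 KO after DSS.

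Among crypt base stem cell genes, 12 of 19 tested, of 20 listed, were above 0 in each fit (49.4% of all genes with 14 libraries and 49.8% with 13), with medians of 0.10 with 14 libraries and 0.17 with 13, and the latter was 0.03 without WT after DSS replicate 2. Ascl2, a Wnt-driven factor of crypt base cells, had 414, 338, 319 and 285 normalized counts in WT on water and 119, 85.1 and 137 after DSS, without overlap. The corresponding Smad4 KO values were 293, 94.3, 44.5 and 113 on water and 69.1, 50.3 and 74.2 after DSS. Its difference was 0.50 (SE 0.61) with 14 libraries and 1.20 (SE 0.43) with 13. Rgmb, a BMP co-receptor (0.41, SE 0.19), was the other member above 0 at an unadjusted p below 0.05 with 13 libraries. At that p, 4.16% of all genes tested were above 0.

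The remaining epithelial programs had medians near 0, whose size or sign changed when single libraries were left out. Over all genes tested with 13 libraries, 4.16% were above and 4.26% below 0 at an unadjusted p below 0.05. Cell cycle genes had a median of -0.09 with 13 libraries, with 3 of 30 above 0 and 0 below 0 at an unadjusted p below 0.05, among them Tk1 and Tyms, enzymes of thymidine supply (0.59, SE 0.26, and 0.49, SE 0.22), while Mki67, the proliferation marker, had -0.81 (SE 0.42). Cell cycle inhibitors had a median of -0.15, with 1 of 12 tested, of 13 listed, Ccng2 (-0.58, SE 0.25), at an unadjusted p below 0.05, and Cdkn1a, which encodes p21, had -0.26 (SE 0.33). Of 32 colonocyte genes, 0 were above and 3 below 0, the carbonic anhydrase Car4 (-0.80, SE 0.32), Slc37a2 (-0.83, SE 0.33) and Cldn4 (-0.89, SE 0.37), with a median of -0.16. Goblet cell genes had a median of 0.18, with none of 20 at an unadjusted p below 0.05, and Muc2, the gel-forming mucin, had -0.12 (SE 0.45). Enteroendocrine and tuft genes had a median of 0.00, with Gcg, the proglucagon gene, at -0.94 (SE 0.41), the only member of 19 tested, of 20 listed, at an unadjusted p below 0.05.

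Repair and fetal-like genes had a median of -0.45 with 13 libraries and -0.28 with 14, with 16 of 20 tested below 0 with 13 libraries, of 28 listed. The median was -0.27 with 13 libraries without Smad4 KO after DSS replicate 3, and -0.15 to -0.45 with 14 when each library was left out. Over all genes tested with 13 libraries, 50.2% were below 0, and 4.26% were below 0 at an unadjusted p below 0.05. Areg, an EGF receptor ligand (-1.02, SE 0.43), and Plat, the tissue plasminogen activator (-1.87, SE 0.80), were below 0 at an unadjusted p below 0.05 with 13 libraries. Matrix genes had a median of 0.32 with 13 libraries and 0.07 with 14. Of 25 tested, of 36 listed, 3 and 1 were above 0 at an unadjusted p below 0.05, against 4.16% and 3.48% of all genes tested. Leaving out WT water replicate 3 or Smad4 KO water replicate 2 moved the median to 0.01 and 0.02 with 13 libraries and to -0.01 and -0.08 with 14. Col4a2, a basement membrane collagen (2.02, SE 0.79), and Fn1, fibronectin (2.34, SE 1.01), were low, at 10.7 to 92.9 and 4.6 to 99.4 normalized counts in single libraries. Immediate early genes had a median of -0.23, which was -0.10 without WT water replicate 4 and -0.40 without Smad4 KO after DSS replicate 2, with 16 of 19 tested below 0, of 20 listed, and Klf6, a zinc finger factor (-0.91, SE 0.26), at an unadjusted p below 0.05. Mitochondrially encoded genes had a median of 0.84, or 1.10 with 14 libraries, and 12 of 13 were above 0. Of all genes tested, 49.8% were above 0 with 13 libraries and 49.4% with 14. Without the 3 water libraries over 20% mitochondrial the medians were -0.05 and 0.06. Of these, mt-Atp8 (2.98, SE 0.77) was at an unadjusted p below 0.05, with 47.1 to 236 normalized counts in WT on water and 8.23 to 47.7 in all other libraries.

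**Figure D5:**
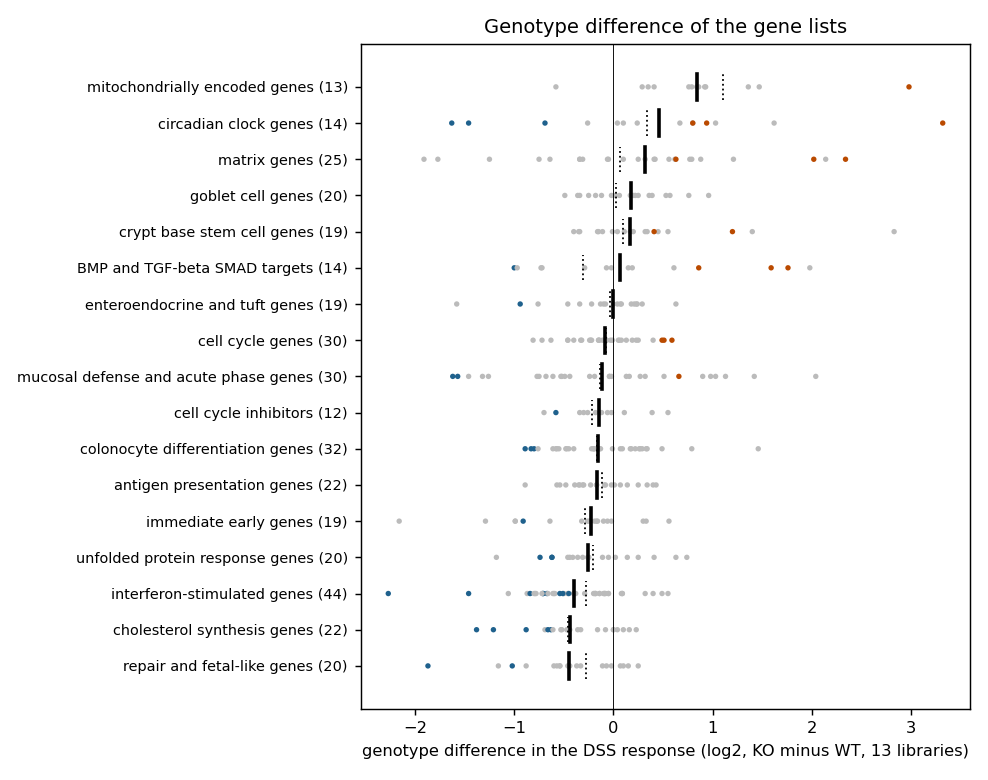
Each point is a tested member of the list named at the left, with the number of members in brackets, and its genotype difference over 13 libraries (log2). Orange and blue mark members at an unadjusted p below 0.05 above and below 0, the solid bar is the list's median with 13 libraries and the dotted bar that with 14. The largest shift between the bars is that of the SMAD targets, from -0.31 to 0.07.

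Markers of other cells were followed because epithelium stripped with EDTA can carry them along, and in such bulk samples fewer cells of a type and less RNA per cell cannot be told apart. The summed normalized counts of 10 epithelial markers ran from 308653 to 481890 in single libraries. Of 10 markers each, fibroblast markers summed to 405 to 516 in WT on water, 463 to 524 in WT after DSS, 616 to 1176 in Smad4 KO on water and 709 to 892 in Smad4 KO after DSS, so that the knockout libraries lay above the WT libraries in both conditions. Smooth muscle markers summed to 1153 to 1798 over all libraries, myeloid markers to 2010 to 4370, enteric glia markers to 3451 to 6314, adipocyte markers to 1030 to 1849 and neutrophil markers to 789 to 2221. Lymphoid markers, of which 9 are in the table, summed to 199 to 729, endothelial markers to 27 to 75 and squamous markers to 203 to 628. The distal colon Hox genes, of which 9 are in the table, summed to 4337 to 12586. No count in any library was found for 3 squamous, 2 endothelial, 1 neutrophil, 1 glial and 1 adipocyte marker. At most 10 counts in every library were found for 9 of 10 neutrophil markers, 6 endothelial, 6 glial, 6 adipocyte, 5 squamous and 4 fibroblast markers. The sums of those lists rest on their other members, so that a high sum does not measure how much of a cell type was carried along. Of these lists, none had a tested member called in the genotype difference, and their part in the differences was not tested.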

How the data were processed

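Poly(A) RNA of isolated colon epithelium was sequenced by the authors, who aligned paired reads with HISAT2 to the mouse genome build mm9 and counted them with featureCounts. The deposited file gives whole-number counts for 37680 Ensembl genes in 14 libraries, of which 14001 have no count, and 0 columns were left unused. How reads that fit several places were treated is not given in the sources used here, and it bears on near-identical genes. Whether counting used strand is not given there either, so that overlapping and antisense genes cannot be told apart.

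Libraries were grouped by their labels. The 15127 genes that reached 10 counts in 3 or more libraries were fitted with edgeR 4.0.16 (quasi-likelihood test, TMM, R 4.3.3) in a 4-group model, and the genotype difference was its interaction contrast, two-sided, called at a Benjamini-Hochberg adjusted p of 0.05. The submitted study compared groups in pairs and gave no such contrast. The fit was repeated over the same genes without Smad4 KO water replicate 1, an exclusion that rests on Smad4, which is therefore not tested there. Fold changes used edgeR's default prior count. A prior count of 2 was used in the log-scale levels behind the length and GC trends and the check of same-numbered libraries. The test was tried on simulated counts that hold no outlying library and no trend with mitochondrial share or gene length. No result here rests on that trial. Alternatives used DESeq2 1.42.0, limma 3.58.1, other scalings, filters, covariates and blocks, and each library left out in turn. Annotation was from GENCODE M1, and promoters were from RefSeq tables on GRCm38.p6.

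Genes named were Smad4, called genes, and otherwise the 8 per direction with the smallest p and a mean of at least 50 normalized counts in each fit, and from each list the 2 genes with the smallest p and the 2 most abundant. Other list members named, and the genes called within Smad4 KO, were chosen after their values were seen. A few genes that this rule selects are not reported here. The comparison, its members and the gene lists were chosen with earlier results of these data known. Lists are described by counts and medians with no test. Total counts limit precision in low genes, and intervals cover the spread between these libraries.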

Additional observations from a re-analysis of the deposited data

Results flagged for a closer look

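The genotype difference of Rpl34, 5.25 with 14 libraries and 5.30 with 13, was the only one to pass the test of the difference between genotypes.

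In 182 groups of 4 libraries, 16 had a library that stood apart from the other 3 by Dixon's criterion at the 95% level. Chance alone sets apart about 1 in 20 such groups, but many of these genes were named for their values in the same libraries. That share is therefore no fair background for them. Smad4 is the ground for leaving out Smad4 KO water replicate 1, and 1190002H23Rik and Fam102b were named only in the fit without it. For these genes, standing apart in that library is no separate support. Smad4 KO water replicate 1 stood apart for Smad4 (3164 normalized counts, others 702 to 936), Id1 (6058, others 958 to 1827), 1190002H23Rik (374, others 70 to 104), Fam102b (923, others 1341 to 1401), Fcgbp, a goblet cell product (54132, others 21910 to 23191), and the chaperone gene Hspa5 (11393, others 16300 to 16734). Smad4 KO water replicate 4 stood apart for Clock (1419, others 2490 to 2708) and mt-Co1 (2401859, others 417685 to 609105), and replicate 3 for Fam23a (3369, others 2804 to 2886). WT water replicate 4 stood apart for Rps26-ps1 (1090, others 130 to 286), Slc25a24 (2113, others 2662 to 2768), the adhesion gene Ceacam1 (19245, others 35985 to 39161) and the clock gene Bhlhe40 (1068, others 2079 to 2166). WT water replicate 3 stood apart for AL646020.1 (16.3, others 30 to 31.1), and WT water replicate 2 for Srebf2 (6103, others 4857 to 5041). In total counts, Smad4 KO water replicate 2 was low, at 15117632 against 20812097 to 21795850.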

How the results depend on the processing

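The number of called genes depended on the test and the water libraries. For the genotype difference, 1 gene was called with 14 libraries and 1 with 13. DESeq2 called 8 and 26, no filter on low counts gave 2 and 5, and limma voom gave 3 and upper quartile scaling 2 with 13 libraries. Leaving out the 3 water libraries over 20% mitochondrial gave 30 and 776, and summing the Rpl34 copies 0 and 0. Leaving out each library in turn gave 1 to 5 calls with 14 libraries and 1 to 454 with 13, with both highest counts from leaving out Smad4 KO water replicate 4.

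For the WT response, with 0 calls, the counts were 851 with DESeq2, 138 without a filter, 1431 with voom, 1 with the name letter as a block and 35 without the 3 libraries, and 0 to 529 with each library left out. For the Smad4 KO response, with 10, they were 70 with DESeq2, 36 with voom, 1 with the name letter as a block, 5 with length and GC trends removed, 26 without the 3 libraries, 4 with the copies summed, and 3 to 11 with each library left out. The causes were not tested.

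With the replicate number as a block, the genotype difference had 1 call in each fit, the WT response 0 and the Smad4 KO response 6. The numbers do not pair the libraries: 2 of 19 same-numbered pairs had a correlation of deviations above 0.1, and 3 of 14 libraries correlated best with their own number. A sex block could not be fitted, since all 14 libraries show Xist and at most 12 Y-linked reads.

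No call changed direction. Of 446 values of the genes with the smallest p-values under alternatives with 14 libraries, 10 passed the threshold and 1, Rpl34 with its copies summed, no longer did. With 13 libraries these were 49 and 1 of 431. The list medians of the interferon-stimulated, cholesterol, repair, immediate early and clock genes kept their sign under every alternative run in both fits.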

Other observations

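Of the marker lists, epithelial markers had a median genotype difference of 0.10 with 14 libraries over 10 tested genes. Among them 1 was below 0 at an unadjusted p below 0.05, against 4.03% of all genes tested. Of the 4 tested adipocyte markers, 1 was above 0 at that p, against 3.48% of all genes tested. The medians were -0.08 for 6 fibroblast, -0.15 for 7 smooth muscle, -0.65 for 3 endothelial, 0.12 for 10 myeloid, 0.02 for 8 lymphoid, -0.12 for 3 glial, 0.52 for 4 adipocyte and -0.13 for 4 squamous markers. The single tested neutrophil marker was at -0.01, and 8 genes of distal colon position had a median of 0.25.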
